A study of Saccharomyces cerevisiae with 15 samples.

Results

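The genes described are those of the cytosolic Hsp70 chaperones of budding yeast (Saccharomyces cerevisiae) and of the factors that recharge them. They were chosen by name and function, with earlier results of these data known. They are the Hsp70 genes SSA1, SSA2, SSA3 and SSA4, the ribosome-bound Hsp70 genes SSB1 and SSB2, and the nucleotide exchange factor genes SSE1, SSE2, FES1 and SNL1. All 10 were measured, among 5449 genes in all, each by the probe set with the highest mean over the arrays.

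RNA was measured in strain YPH499 carrying pEG(KG), a plasmid whose GAL1 promoter is switched on by galactose and here drives a human interleukin-1 receptor-associated kinase (IRAK). The groups were Control (the empty plasmid), IRAK4, IRAK4(KD) (a catalytically inactive IRAK4), IRAK1 and IRAK2, with 3 biological replicates each on 1 Affymetrix array, 15 arrays in all. Below, a kinase group is any group with an IRAK protein, whatever its activity, so the inactive IRAK4(KD) is included. Every culture, Control included, grew for 18 h in raffinose medium and then, from an optical density of 0.3, for 6 h in galactose medium at 30 °C. The arrays held 0 probe sets for a human IRAK gene, so how much of each kinase the cells made was not measured here.

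YPH499 is a strain of mating type a, and the arrays read accordingly: the a-specific genes MFA1, MFA2 and STE2 lay at log2 values of 8.08 to 10.23, and the alpha-specific genes MF(ALPHA)1, MF(ALPHA)2 and STE3 at 2.62 to 6.57. The median log2 value of an array lay between 8.72 and 8.87. Replicate arrays correlated across genes at 0.993 or more, except that IRAK1 replicate 1 correlated at 0.968 with the other IRAK1 arrays. It stands apart, so values that rest on it are also given without it.

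Hsp70 chaperones bind short hydrophobic stretches of unfolded proteins and release them in a cycle driven by ATP. J-proteins load the substrate and start ATP hydrolysis, and nucleotide exchange factors remove the ADP so that the substrate is freed. In yeast SSA1 and SSA2 are made in growing cells, while SSA3 and SSA4 are known as genes induced by heat and other stress. SSB1 and SSB2 encode Hsp70s that sit at the ribosome and receive new polypeptides. The heat shock factor Hsf1 controls many chaperone genes, and the general stress factors Msn2 and Msn4 act on SSA3, SSA4 and SSE2 as well.

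The stress-inducible SSA4 was higher in each of the 4 kinase groups, the inactive IRAK4(KD) included, by 2.23-fold in IRAK4 up to 18.4-fold in IRAK1. The constitutive SSA2 was 1.65-fold higher in IRAK2, 1.50-fold in IRAK4(KD) and 1.37-fold in IRAK1, and 2.00-fold lower in IRAK4. The ribosome-bound SSB1 and SSB2 were 1.52-fold and 1.63-fold lower in IRAK1 and were not called against Control in the other groups. Another SSB1 probe set fell further in IRAK1, by 1.09 on the log2 scale. Changes are log2 differences ± the standard error of limma, a linear model with a spread per gene pooled over all 15 arrays. A gene rose, fell or was called only where its Benjamini-Hochberg adjusted p over all genes was under 0.05. The label "biological replicate" does not say whether cultures were grown separately on separate days, so the p-values measure the spread between these cultures. All 4 comparisons with Control share the same 3 Control arrays.

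**Figure D1:**
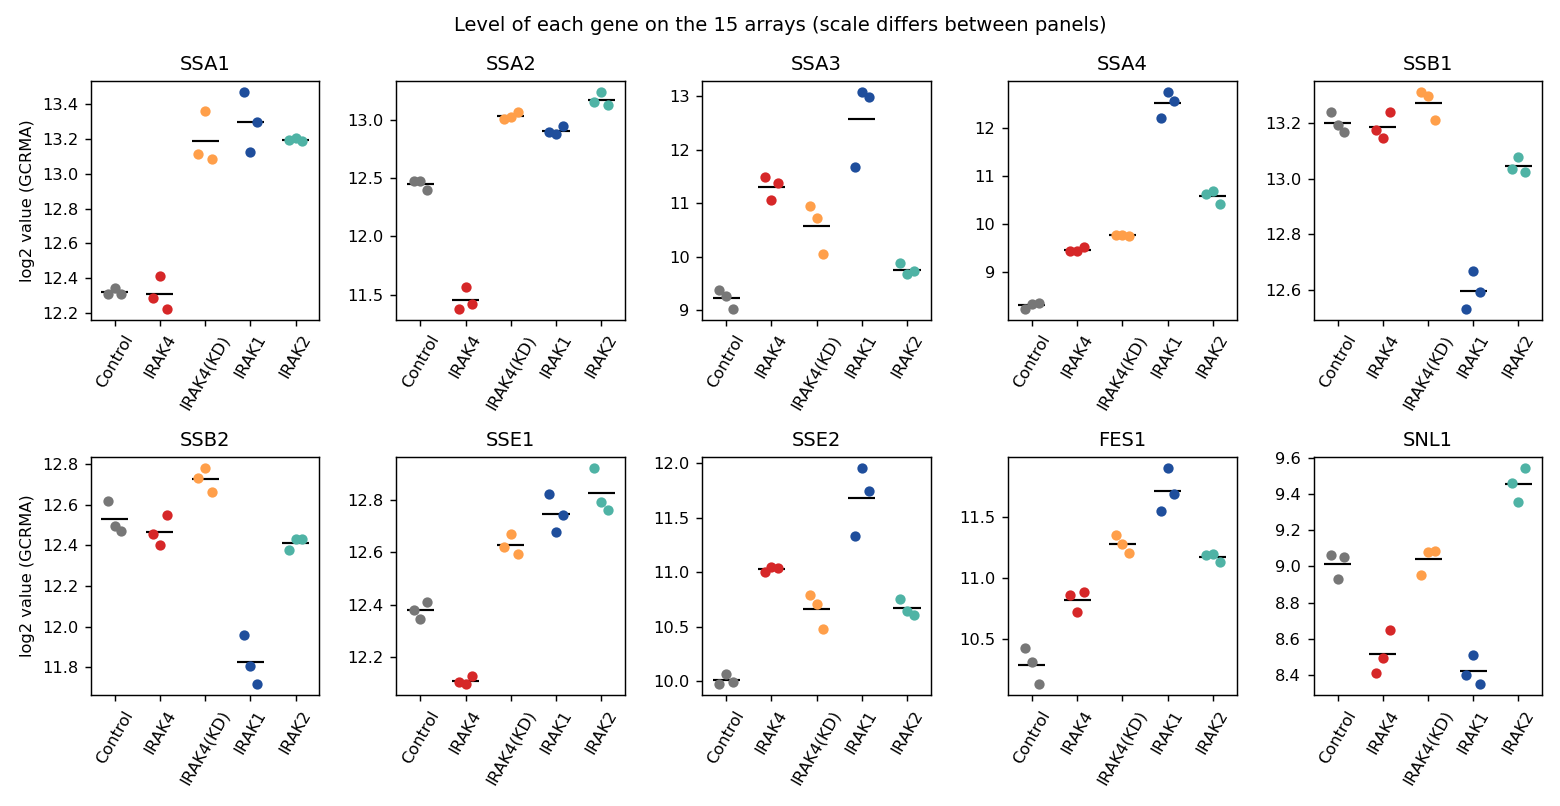
Log2 value (GCRMA) of each of the 10 genes on the 15 arrays, by group; each point is 1 array, each line the mean of 3, and the vertical scale differs between panels. SSA4 reads 8.24 to 8.36 in Control and 12.22 to 12.76 in IRAK1, while SSA2 reads lowest in IRAK4, at 11.38 to 11.57.

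SSA4 (YER103W) had log2 values of 8.24, 8.34 and 8.36 on the Control arrays. It read 9.43, 9.44 and 9.53 in IRAK4 and 9.79, 9.79 and 9.75 in IRAK4(KD). On the IRAK1 arrays it read 12.22, 12.76 and 12.58, and on the IRAK2 arrays 10.63, 10.70 and 10.43. No 2 groups overlapped, and the order from low to high was Control, IRAK4, IRAK4(KD), IRAK2 and IRAK1. The rise against Control was 1.15 ± 0.11 in IRAK4 (adjusted p = 2.72e-06), 1.46 ± 0.11 in IRAK4(KD) (adjusted p = 2.00e-06), 4.21 ± 0.11 in IRAK1 (adjusted p = 7.03e-12), and 2.27 ± 0.11 in IRAK2 (adjusted p = 3.99e-08). In IRAK2 it was the largest rise of the 5449 genes, in IRAK1 the 3rd largest and in IRAK4(KD) the 8th, while in IRAK4 it was the 128th. RNA came from whole cultures, so a change per cell and a change in the share of cells expressing a gene cannot be told apart. SSA4 was called in each of the 10 comparisons between groups. Its difference between IRAK4 and IRAK4(KD), -0.31 ± 0.11 (adjusted p = 0.0482), was called by a narrow margin: the call ended when any 1 array of Control, IRAK4 or IRAK4(KD), IRAK1 replicate 3, or IRAK2 replicate 1 or 2 was left out (-0.34 to -0.29), and after quantile normalization (-0.33). Without IRAK1 replicate 1 the rise in IRAK1 was 4.36 ± 0.09.

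SSA3 (YBL075C), the other inducible Hsp70 gene, had Control values of 9.38, 9.27 and 9.02. It read 11.49, 11.07 and 11.37 in IRAK4 and 10.94, 10.72 and 10.06 in IRAK4(KD). On the IRAK1 arrays it read 11.68, 13.08 and 12.98, and on the IRAK2 arrays 9.87, 9.67 and 9.73. Every kinase group lay above the Control arrays, and IRAK1 replicate 1 lay more than 1 log2 unit below the other IRAK1 arrays. SSA3 rose by 2.08 ± 0.30 in IRAK4 (adjusted p = 7.85e-05), 1.35 ± 0.30 in IRAK4(KD) (adjusted p = 0.00822) and 3.36 ± 0.30 in IRAK1 (adjusted p = 4.37e-07). In IRAK2 the difference of 0.53 ± 0.30 was not called (adjusted p = 0.286). That error holds the spread of the IRAK1 arrays, whose SD was 0.78: without IRAK1 replicate 1 the difference in IRAK2 was 0.53 ± 0.18 and was called (adjusted p = 0.0442), and from the 6 arrays of IRAK2 and Control alone it was called too (adjusted p = 0.00658). The rise in IRAK1 without that array was 3.81 ± 0.20.

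SSA3 and SSA4 therefore stood in different orders. SSA3 was highest in IRAK1, then IRAK4, IRAK4(KD), IRAK2 and Control, so that IRAK2 came 2nd for SSA4 and 4th for SSA3. SSA3 was lower in IRAK2 than in IRAK4 by 1.55 ± 0.30 on the log2 scale (adjusted p = 5.92e-04), whereas SSA4 was higher there by 1.12 ± 0.11 (adjusted p = 2.39e-06). Neighbours in the order of SSA3 between IRAK4 and IRAK4(KD) (0.74 ± 0.30, adjusted p = 0.0696) and between IRAK4(KD) and IRAK2 (0.82 ± 0.30, adjusted p = 0.0553) were not called. Both were called without IRAK1 replicate 1 (adjusted p = 0.00329 and 0.00229). The former was also called without IRAK4(KD) replicate 1 (0.92), and the latter without IRAK1 replicate 2 or 3 (-0.82) or IRAK4(KD) replicate 3 (-1.07, IRAK2 minus IRAK4(KD)).

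SSA1 (YAL005C) and SSA2 (YLL024C) encode nearly identical proteins, and their transcripts can share signal on an array. SSA1 read 12.31, 12.34 and 12.31 in Control and 12.29, 12.42 and 12.22 in IRAK4, which overlapped. It read 13.11, 13.36 and 13.08 in IRAK4(KD). In IRAK1 it read 13.47, 13.12 and 13.30, and on the IRAK2 arrays 13.19, 13.20 and 13.18. These 3 groups overlapped among themselves and lay wholly above Control and IRAK4. SSA1 rose by 0.86 ± 0.10 in IRAK4(KD) (adjusted p = 4.88e-05), 0.98 ± 0.10 in IRAK1 (0.89 ± 0.09 without IRAK1 replicate 1) and 0.87 ± 0.10 in IRAK2 (adjusted p = 1.51e-04). In IRAK4 the difference was -0.01 ± 0.10.

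SSA2 read 12.48, 12.48 and 12.40 in Control and 11.38, 11.57 and 11.42 in IRAK4. In IRAK4(KD) it read 13.01, 13.03 and 13.07, in IRAK1 12.90, 12.88 and 12.95, and in IRAK2 13.15, 13.24 and 13.13. No groups overlapped, and IRAK4 was the 1 group below Control. SSA2 fell by 1.00 ± 0.07 in IRAK4 (adjusted p = 1.10e-07), and rose by 0.58 ± 0.07 in IRAK4(KD) (adjusted p = 1.01e-04), 0.45 ± 0.07 in IRAK1 (0.46 ± 0.07 without IRAK1 replicate 1) and 0.72 ± 0.07 in IRAK2 (adjusted p = 6.85e-05). Active and inactive IRAK4 differed by -1.58 ± 0.07 (adjusted p = 3.40e-09), the 15th lowest difference of all genes in that comparison. The neighbours IRAK2 and IRAK4(KD) (adjusted p = 0.158) and IRAK4(KD) and IRAK1 (adjusted p = 0.141) were not called.

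SSB1 (YDL229W) read 13.24, 13.19 and 13.17 in Control, 13.17, 13.15 and 13.24 in IRAK4, and 13.31, 13.30 and 13.21 in IRAK4(KD), which overlapped. It read 12.53, 12.67 and 12.59 in IRAK1 and 13.03, 13.08 and 13.02 in IRAK2. SSB1 fell by 0.60 ± 0.07 in IRAK1 (adjusted p = 4.41e-06) and was not called against Control elsewhere, with -0.01 ± 0.07 in IRAK4, 0.07 ± 0.07 in IRAK4(KD) and -0.16 ± 0.07 in IRAK2. Its near-identical paralogue SSB2 (YNL209W) read 12.62, 12.50 and 12.47 in Control and 11.96, 11.81 and 11.71 in IRAK1. SSB2 fell by 0.70 ± 0.08 in IRAK1 (adjusted p = 4.87e-06), and its other values were 12.40 to 12.55 in IRAK4, 12.66 to 12.78 in IRAK4(KD) and 12.38 to 12.43 in IRAK2. The 3 IRAK4(KD) arrays lay above Control, a difference of 0.20 ± 0.08 that was not called (adjusted p = 0.0978) but was called without IRAK1 replicate 1 (adjusted p = 0.0375). Without that array the falls in IRAK1 were 0.57 ± 0.07 on the log2 scale for SSB1 and 0.77 ± 0.08 for SSB2.

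SSB1 was the 1 gene of the 10 with more than 1 probe set, and the set used has a name that on this platform marks probes that may be shared with other transcripts. The other SSB1 set read 12.67 to 12.81 in Control and 11.45 to 11.75 in IRAK1, a difference of -1.09 between the means. Its differences from Control in IRAK4, IRAK4(KD) and IRAK2 were 0.02, 0.10 and -0.14. The 2 sets moved the same way in IRAK1, with sizes of -0.60 and -1.09, so the size of the fall depends on the set.

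The inducible SSA3 and SSA4 were set against SSA1, SSA2, SSB1 and SSB2 within each array. The value is the mean log2 value of SSA3 and SSA4 minus that of SSA1, SSA2, SSB1 and SSB2, with the Control mean set to 0. The subtracted genes were not constant, and their changes enter the value. SSA1 and SSA2 rose in IRAK4(KD), IRAK1 and IRAK2, SSA2 fell in IRAK4, and the SSB genes fell in IRAK1. The Control arrays then lay between -0.04 and 0.03. IRAK4 arrays lay at 1.99, 1.73 and 1.95, IRAK4(KD) at 1.18, 0.99 and 0.76, IRAK1 at 3.09, 4.16 and 3.997, and IRAK2 at 1.17, 1.05 and 0.99. The shift was largest in IRAK1, at 3.75 ± 0.57 (SD, n = 3), followed by 1.89 ± 0.14 in IRAK4, 1.07 ± 0.09 in IRAK2 and 0.98 ± 0.21 in IRAK4(KD). IRAK4(KD) and IRAK2 overlapped, and both lay below IRAK4, which lay below IRAK1. A common scaling of an array cancels in this value, and no test was made because the genes in it were chosen. Without IRAK1 replicate 1 the shift in IRAK1 was 4.08.

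The parts of that shift differed between groups. SSA4 minus SSA2 moved by 3.75 ± 0.28 (SD, n = 3) in IRAK1, 2.15 ± 0.12 in IRAK4, 1.55 ± 0.09 in IRAK2 and 0.88 ± 0.05 in IRAK4(KD). SSA4 minus SSB1 moved by 4.81 ± 0.21, 1.17 ± 0.02, 2.43 ± 0.11 and 1.39 ± 0.04 in the same order. IRAK4 thus lay above IRAK2 when SSA4 was set against SSA2, and below it when SSA4 was set against SSB1.

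**Figure D2:**
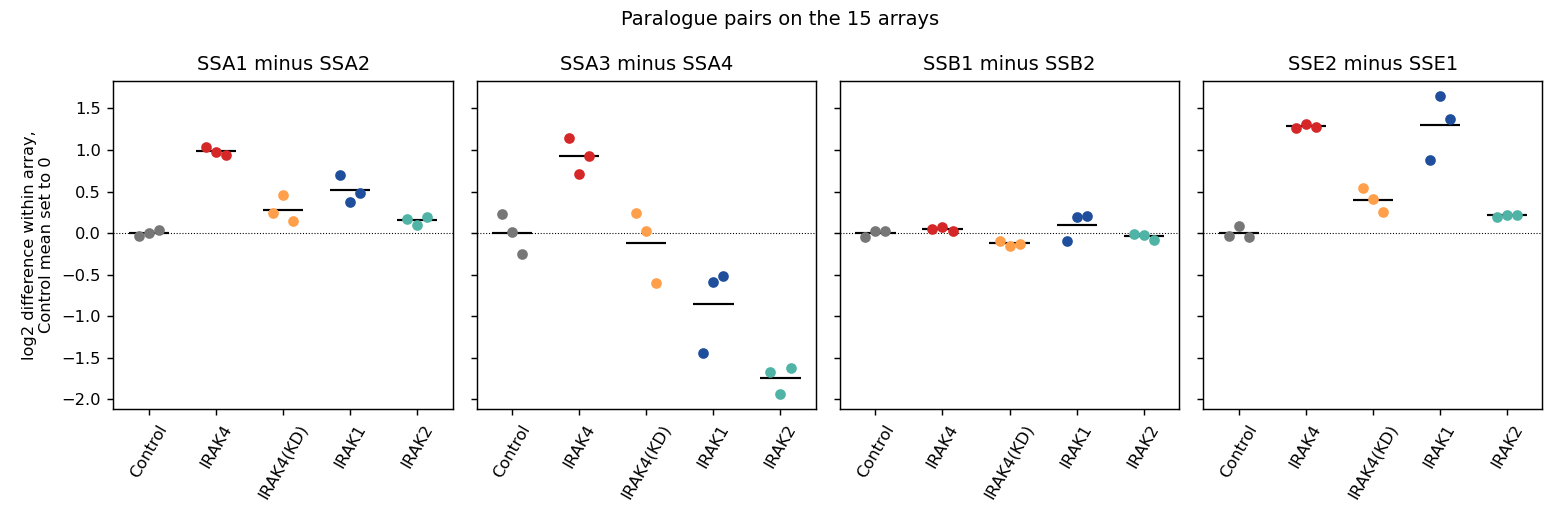
Difference in log2 value between the members of 4 paralogue pairs within each array, with the Control mean set to 0; points are arrays and lines are means of 3. SSA1 minus SSA2 is highest in IRAK4 (0.94 to 1.04) and SSA3 minus SSA4 lowest in IRAK2 (-1.94 to -1.62). SSB1 minus SSB2 stays within -0.16 and 0.21 on all arrays, by the SSB1 probe set with the highest mean only.

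Paralogues were compared in the same way, within arrays and relative to Control. SSA1 minus SSA2 was 1.04, 0.98 and 0.94 in IRAK4 and 0.71, 0.38 and 0.49 in IRAK1, against -0.04 to 0.04 in Control. It was 0.15 to 0.46 in IRAK4(KD) and 0.10 to 0.19 in IRAK2, so SSA1 stood higher relative to SSA2 on all 12 kinase arrays than on the Control arrays. SSA3 minus SSA4 ran from -0.25 to 0.23 in Control and lay above it in IRAK4, at 0.72 to 1.14. It overlapped Control in IRAK4(KD), at -0.61 to 0.24, and lay below it in IRAK1, at -1.45 to -0.51, and in IRAK2, at -1.94 to -1.62. IRAK1 replicate 1 was at the low end, and the other IRAK1 arrays were at -0.59 and -0.51. By the SSB1 probe set with the highest mean, SSB1 minus SSB2 lay between -0.16 and 0.21 on all arrays. That set may share probes with other transcripts. The other SSB1 set differed from Control by -1.09 in IRAK1, where SSB2 differed by -0.70, so the range depends on the set.

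The nucleotide exchange factors come from separate protein families. SSE1 and SSE2 encode Hsp110 proteins, FES1 a cytosolic armadillo-type factor, and SNL1 a factor with a BAG domain that is anchored in the endoplasmic reticulum membrane.

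FES1 (YBR101C) read 10.43, 10.32 and 10.13 in Control, 10.86, 10.73 and 10.88 in IRAK4 and 11.35, 11.27 and 11.21 in IRAK4(KD). On the IRAK1 arrays it read 11.55, 11.90 and 11.68, and on the IRAK2 arrays 11.19, 11.19 and 11.13. No groups overlapped, and Control was lowest. FES1 rose by 0.53 ± 0.10 in IRAK4 (adjusted p = 6.74e-04), 0.98 ± 0.10 in IRAK4(KD) (adjusted p = 1.96e-05), 1.42 ± 0.10 in IRAK1 (1.50 ± 0.10 without IRAK1 replicate 1) and 0.88 ± 0.10 in IRAK2 (adjusted p = 1.58e-04). It was the 28th highest of all genes in IRAK4(KD) and the 19th in IRAK2. IRAK4(KD) and IRAK2, neighbours in the order, differed by 0.10 ± 0.10 (adjusted p = 0.458).

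SSE2 (YBR169C), the Hsp110 gene known as stress-inducible, read 9.97, 10.06 and 9.997 in Control, 11.01, 11.05 and 11.04 in IRAK4 and 10.79, 10.71 and 10.48 in IRAK4(KD). On the IRAK1 arrays it read 11.34, 11.96 and 11.75, and on the IRAK2 arrays 10.76, 10.65 and 10.61. It rose by 1.02 ± 0.13 in IRAK4 (adjusted p = 2.35e-05), 0.65 ± 0.13 in IRAK4(KD) (adjusted p = 0.00404), 1.67 ± 0.13 in IRAK1 (1.84 ± 0.09 without IRAK1 replicate 1) and 0.66 ± 0.13 in IRAK2 (adjusted p = 0.00681). IRAK4(KD) and IRAK2 overlapped, and both lay below IRAK4. The calls between IRAK4 and these groups were narrow. That of 0.37 ± 0.13 against IRAK4(KD) (adjusted p = 0.0359) ended without any 1 IRAK4 array, without IRAK4(KD) replicate 2 or 3 (0.28 to 0.39), and under median centring or quantile normalization. That of IRAK2 against IRAK4, -0.36 ± 0.13 (adjusted p = 0.0285), ended without any 1 IRAK4 array or IRAK2 replicate 2 or 3 (-0.37 to -0.33) and under the same scalings.

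SSE1 (YPL106C), the major Hsp110 gene, moved less. It read 12.38, 12.35 and 12.41 in Control, 12.10, 12.09 and 12.13 in IRAK4 and 12.62, 12.67 and 12.59 in IRAK4(KD). In IRAK1 it read 12.82, 12.68 and 12.74, and on the IRAK2 arrays 12.92, 12.79 and 12.76. As with SSA2, IRAK4 lay below Control and the other kinase groups lay above it. SSE1 fell by 0.27 ± 0.07 in IRAK4 (adjusted p = 0.00643) and rose by 0.37 ± 0.07 in IRAK1 (0.33 ± 0.07 without IRAK1 replicate 1) and 0.45 ± 0.07 in IRAK2 (adjusted p = 0.0015). The rise of 0.25 ± 0.07 in IRAK4(KD) (adjusted p = 0.0266) was not called without any 1 Control array or IRAK4(KD) replicate 1 or 2 (0.23 to 0.27), nor after quantile normalization (0.16). Relative to Control, SSE2 minus SSE1 within an array was 1.27 to 1.32 in IRAK4 and 0.88 to 1.65 in IRAK1, which overlapped, and lower at 0.26 to 0.54 in IRAK4(KD) and 0.20 to 0.22 in IRAK2.

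SNL1 (YIL016W) read 9.06, 8.93 and 9.05 in Control, 8.41, 8.49 and 8.65 in IRAK4 and 8.95, 9.08 and 9.08 in IRAK4(KD). On the IRAK1 arrays it read 8.40, 8.51 and 8.35, and on the IRAK2 arrays 9.46, 9.36 and 9.55. IRAK4 and IRAK1 overlapped below Control, IRAK4(KD) overlapped Control, and IRAK2 lay above all other arrays. SNL1 fell by 0.50 ± 0.09 in IRAK4 (adjusted p = 3.62e-04) and by 0.60 ± 0.09 in IRAK1 (-0.59 ± 0.09 without IRAK1 replicate 1). It rose by 0.44 ± 0.09 in IRAK2 (adjusted p = 0.00704), and its difference in IRAK4(KD) was 0.02 ± 0.09. IRAK2 exceeded IRAK1 by 1.04 ± 0.09 (adjusted p = 1.89e-07).

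**Figure D3:**
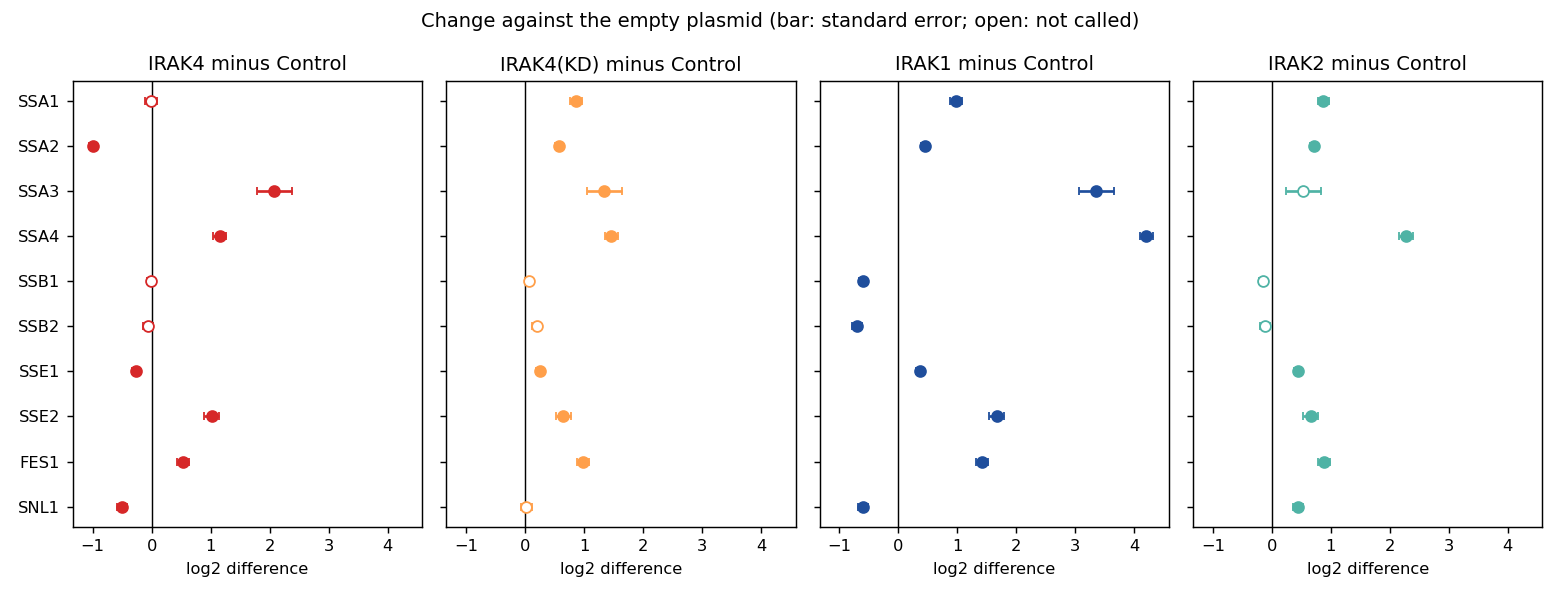
Log2 difference from Control of the 10 genes in each kinase group; bars are standard errors from limma with 3 arrays per group, and open symbols were not called. In IRAK1 all 10 genes are called, from -0.70 for SSB2 to 4.21 for SSA4, and in IRAK2 SSA3, SSB1 and SSB2 are open. Of all genes tested, 58.7% were called in IRAK1 and 9.19% in IRAK2.

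Counted by group and against Control, 7 of the 10 genes rose and 0 fell in IRAK2, where 9.19% of all genes tested were called (5.82% higher and 3.38% lower). In IRAK4(KD) 7 rose and 0 fell, against 17.7% of all genes called (11.7% higher and 6.00% lower). In IRAK4 4 rose and 3 fell, against 44.6% (28.2% higher and 16.4% lower), and in IRAK1 7 rose and 3 fell, against 58.7% (30.6% higher and 28.2% lower). The share of the 10 that was called thus lay furthest above that of all genes in IRAK2. The 3 not called were SSA3, SSB1 and SSB2 in IRAK2, SSB1, SSB2 and SNL1 in IRAK4(KD), and SSA1, SSB1 and SSB2 in IRAK4. The median difference of the 10 was 0.72 in IRAK1, 0.62 in IRAK4(KD), 0.60 in IRAK2 and -0.01 in IRAK4, and that of all genes 0.02, 0.07, 0.01 and 0.08. Arrays of the kinase group and Control did not overlap for 7 of the 10 in IRAK4, 8 in IRAK4(KD) and all 10 in both IRAK1 and IRAK2, against 61.7%, 48.5%, 60.4% and 42.8% of all genes. Without IRAK1 replicate 1 the numbers called in IRAK4, IRAK4(KD), IRAK1 and IRAK2 were 7, 8, 10 and 8, and the shares of all genes called 55.8%, 34.1%, 60.9% and 21.7%.

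The kinase groups were also compared with each other. Between the active and the inactive IRAK4, 7 of the 10 were lower in IRAK4 (SSA1, SSA2, SSA4, SSB2, SSE1, FES1 and SNL1) and 1 (SSE2) was higher, where 34.9% of all genes were called (19.7% higher and 15.3% lower). Their arrays did not overlap for 9 of the 10, against 52.4% of all genes. SSA1 differed by -0.88 ± 0.10 (adjusted p = 1.06e-05), SSE1 by -0.52 ± 0.07, SNL1 by -0.52 ± 0.09 and FES1 by -0.46 ± 0.10. The call of SSB2 (-0.26 ± 0.08, adjusted p = 0.0207) ended without IRAK4 replicate 1 or 2, without IRAK4(KD) replicate 1 or 2 (-0.26 to -0.23) and after quantile normalization (-0.18).

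IRAK1 was higher than IRAK4 in 7 of the 10 and lower in SSB1 and SSB2, against 18.3% and 28.0% of all genes (46.3% in either direction), and the arrays did not overlap for 9 of the 10, against 46.3% by that measure too. Against IRAK4(KD) IRAK1 was higher in SSA3, SSA4, SSE2 and FES1 and lower in SSB1, SSB2 and SNL1, where 57.4% of all genes were called (25.9% higher and 31.5% lower). The arrays did not overlap for 9 of the 10, against 57.4% of all genes. SSA1, SSA2 and SSE1 were not called there (0.11 ± 0.10, -0.13 ± 0.07 and 0.12 ± 0.07). The gap between IRAK1 and IRAK4(KD) was 2.74 ± 0.11 for SSA4 and 2.01 ± 0.30 for SSA3 (2.89 ± 0.09 and 2.46 ± 0.20 without IRAK1 replicate 1).

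IRAK2 exceeded IRAK4 in SSA1, SSA2, SSA4, SSE1, FES1 and SNL1 and was lower in SSA3 and SSE2, where 50.8% of all genes were called (21.4% higher and 29.4% lower). The arrays did not overlap for 9 of the 10, against 65.4% of all genes. SSA2 differed most, by 1.72 ± 0.07 (adjusted p = 5.03e-10). Against IRAK4(KD) IRAK2 was higher in SSA4 (0.81 ± 0.11, adjusted p = 3.04e-04), SNL1 (0.42 ± 0.09) and SSE1 (0.20 ± 0.07, adjusted p = 0.0496) and lower in SSB1 (-0.23 ± 0.07) and SSB2 (-0.31 ± 0.08), where 26.6% of all genes were called (10.4% higher and 16.2% lower). Here 8 of the 10 had arrays that did not overlap, against 53.9% of all genes. The call of SSE1 there ended in 12 of 15 fits that left out 1 array, in all but those without IRAK4 replicate 3 or IRAK1 replicate 1 or 2, and that of SSB1 without IRAK4(KD) replicate 1 or 2 or IRAK2 replicate 1 or 3 (-0.22 to -0.21) and after quantile normalization (-0.20). The call of SSB2 ended without IRAK4(KD) replicate 2 (-0.29). Between IRAK2 and IRAK1 59.8% of all genes were called (30.6% higher and 29.2% lower). Again 8 of the 10 had arrays that did not overlap, against 62.0% of all genes. SSA3, SSA4, SSE2 and FES1 were lower in IRAK2 and SSA2, SSB1, SSB2 and SNL1 were higher. SSA4 differed there by -1.93 ± 0.11 (-2.08 ± 0.09 without IRAK1 replicate 1) and SSA3 by -2.83 ± 0.30 (-3.28 ± 0.20). Without IRAK1 replicate 1 the numbers of the 10 called were 9 between IRAK1 and IRAK4, 7 between IRAK1 and IRAK4(KD) and 8 between IRAK2 and IRAK1, against 53.6%, 60.7% and 61.1% of all genes. In the comparisons that hold no IRAK1 array they were 9 between IRAK4 and IRAK4(KD), 8 between IRAK2 and IRAK4 and 6 between IRAK2 and IRAK4(KD), against 46.8%, 60.2% and 40.6% of all genes.

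Other chaperone genes were described from lists, by counts and medians and with no test of a list. Against Control, a listed gene is given for a group only where its change was among the 3 largest called there. A group that is not given for a gene may therefore have changed too. Of 24 other chaperone genes that Hsf1 is known to act on, 13 rose and 4 fell in IRAK4 and 22 rose and 0 fell in IRAK4(KD). In IRAK1 21 rose and 0 fell, and in IRAK2 20 and 0. Their median differences were 0.35, 0.72, 0.99 and 0.71. Of all genes 28.2% rose and 16.4% fell in IRAK4, and 11.7% and 6.00% in IRAK4(KD). In IRAK1 30.6% and 28.2% did so, and in IRAK2 5.82% and 3.38%. The 4 that fell in IRAK4 thus lie near the background. BTN2, a sorting factor for misfolded proteins, rose by 2.87 ± 0.18 in IRAK1, 1.96 ± 0.18 in IRAK2 and 1.61 ± 0.18 in IRAK4(KD). CUR1, a factor related to it, rose by 1.27 ± 0.12 in IRAK4(KD) and 1.57 ± 0.12 in IRAK2, and the Hsp90 gene HSP82 by 1.12 ± 0.13 in IRAK2. CUR1 was also higher in IRAK1 than in IRAK4, by 1.47 ± 0.12. In IRAK4 the largest changes on the list were in the small heat shock protein genes HSP26 (2.15 ± 0.23) and HSP42 (1.61 ± 0.11) and in HSP104, a disaggregase (0.79 ± 0.10). HSP26 rose by 2.63 ± 0.23 in IRAK1 and 1.56 ± 0.23 in IRAK4(KD), and HSP42 by 2.28 ± 0.11 in IRAK1. Between IRAK4 and IRAK4(KD) 16 of the 24 were lower and 3 higher in IRAK4, with a median of -0.50, BTN2 at -1.48 ± 0.18, HCH1, an Hsp90 co-chaperone, at -1.14 ± 0.11 and the Hsp90 gene HSC82 at -0.92 ± 0.07. The 3 became 1 without IRAK4(KD) replicate 2 or 3. Of all genes 15.3% were lower and 19.7% higher in IRAK4 in that comparison.

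Of 24 stress genes of Msn2 and Msn4, 23 rose and 0 fell in IRAK4 and 6 rose and 0 fell in IRAK4(KD). In IRAK1 all 24 rose, and in IRAK2 0 rose and 7 fell. The medians over the 4 groups in that order were 1.50, 0.22, 1.27 and -0.17. The shares of all genes that rose were 28.2%, 11.7%, 30.6% and 5.82%, and those that fell 16.4%, 6.00%, 28.2% and 3.38%. HSP26 is on this list and on that of Hsf1. In IRAK4 the catalase gene CTT1 rose by 3.56 ± 0.15, and in IRAK1 the transketolase gene TKL2 by 3.88 ± 0.22. In IRAK2 PGM2, phosphoglucomutase, changed by -0.62 ± 0.08 and GPD1, a glycerol phosphate dehydrogenase, by -0.61 ± 0.09. The 6 in IRAK4(KD) became 10 without IRAK1 replicate 1. The 7 in IRAK2 became 2 without Control replicate 2, 3 without any 1 IRAK2 array, 4 without Control replicate 1 or 3, and 10 without IRAK1 replicate 1, where 2 also rose. The groups with high Msn2 and Msn4 genes, IRAK4 and IRAK1, were also the groups highest in SSA3 and SSE2. SSA4, on which these factors also act, did not follow that order. It rose by 4.21 in IRAK1 but least in IRAK4, by 1.15, against 1.46 in IRAK4(KD) and 2.27 in IRAK2. Whether SSA3 and SSE2 move with the list for 1 reason was not tested.

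**Figure D4:**
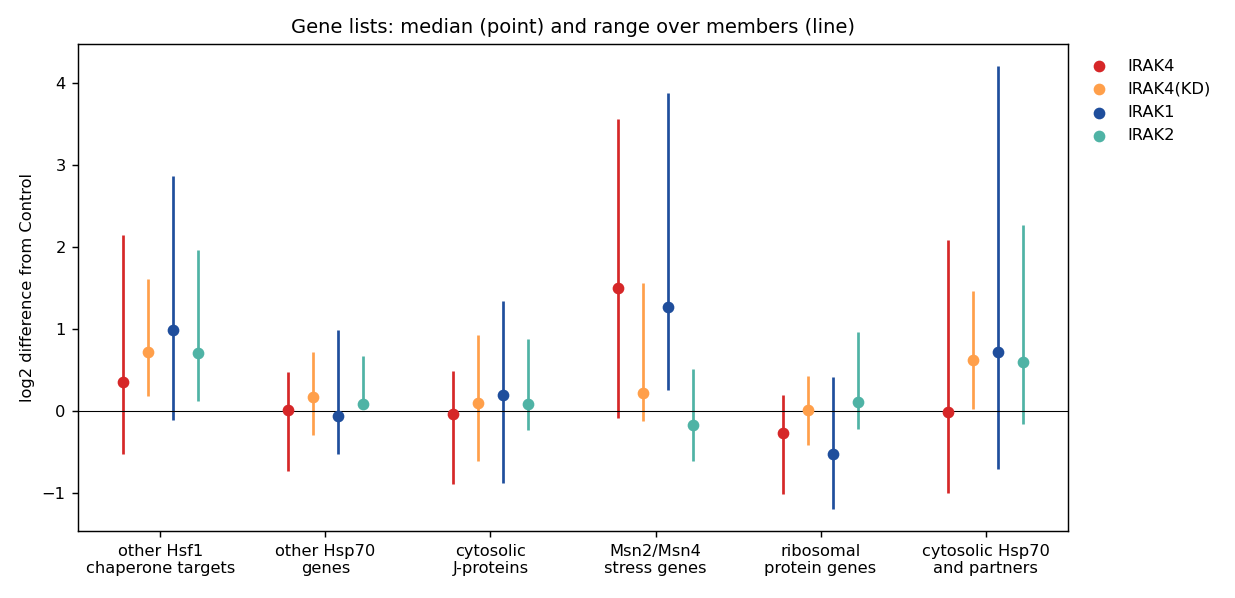
Log2 difference from Control for 5 gene lists and the 10 genes described here, by kinase group; the point is the median over the list and the line runs from its lowest to its highest gene. The Msn2 and Msn4 genes have medians of 1.50 and 1.27 in IRAK4 and IRAK1 and 0.22 and -0.17 in IRAK4(KD) and IRAK2, while the other Hsf1 targets have medians of 0.35 to 0.99 in all 4.

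J-proteins load Hsp70. Of 13 genes for J-proteins of the cytosol and nucleus, with APJ1, SIS1 and YDJ1 also on the Hsf1 list, 4 rose and 3 fell in IRAK4 and 3 and 2 in IRAK4(KD). In IRAK1 5 rose and 3 fell, and in IRAK2 3 and 0. All genes were called at 44.6%, 17.7%, 58.7% and 9.19% in these groups, so the 8 called of 13 in IRAK1 and the 7 in IRAK4 lie near the background. The medians were -0.03, 0.09, 0.19 and 0.08. APJ1 rose by 1.34 ± 0.10 in IRAK1, 0.93 ± 0.10 in IRAK4(KD) and 0.78 ± 0.10 in IRAK2. SIS1, a partner of the SSA proteins, rose by 1.33 ± 0.13 in IRAK1, 0.87 ± 0.13 in IRAK2 and 0.83 ± 0.13 in IRAK4(KD), and YDJ1, their most general partner, by 0.67 ± 0.13 in IRAK2. For YDJ1 the other groups are not given because of the rule of the 3 largest called changes. It differed by -0.44 ± 0.13 between IRAK4 and IRAK4(KD). ZUO1, the ribosome-bound J-protein that works with the SSB proteins, fell by 0.89 ± 0.10 in IRAK1. In IRAK4 the largest changes were in JJJ3 (-0.90 ± 0.22), JJJ1 (-0.72 ± 0.16) and CWC23 (0.49 ± 0.10), and JJJ1 was lower in IRAK4(KD) too (-0.61 ± 0.16). Without Control replicate 3 the numbers in IRAK4 were 1 and 2. They were 2 and 2 without IRAK4 replicate 1, 4 and 2 without IRAK4 replicate 2, 2 and 4 without IRAK4 replicate 3 or after median centring or quantile normalization. The 2 that fell in IRAK4(KD) became 0 without Control replicate 2 or 3 or IRAK4(KD) replicate 1 or 2 and 1 without IRAK4(KD) replicate 3.

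Of 6 other Hsp70 genes, of the endoplasmic reticulum, mitochondria and ribosome, with KAR2 and SSC1 also on the Hsf1 list, 2 were higher and 1 lower in IRAK4. In IRAK4(KD) 2 were higher, in IRAK1 2 higher and 1 lower, and in IRAK2 1 higher. The shares of all genes called were 58.7% in IRAK1 and 44.6% in IRAK4, against 17.7% for IRAK4(KD) and 9.19% for IRAK2. The calls on this list under IRAK1 and under active IRAK4 thus lie near the background. KAR2, which serves protein import and folding in the endoplasmic reticulum, rose by 0.99 ± 0.11 in IRAK1, 0.72 ± 0.11 in IRAK4(KD) and 0.67 ± 0.11 in IRAK2. The mitochondrial SSC1 rose by 0.45 ± 0.11 in IRAK4(KD) and ECM10 by 0.60 ± 0.14 in IRAK1, and SSZ1, the partner of ZUO1 at the ribosome, fell by 0.53 ± 0.11 in IRAK1. The medians were 0.00, 0.17, -0.07 and 0.08, and that in IRAK4 was -0.07 after median centring. The largest change in IRAK4 was a fall of LHS1, which encodes an exchange factor of KAR2, at -0.73 ± 0.13 (adjusted p = 6.05e-04). The 2 that rose there were ECM10 (0.47 ± 0.14) and SSQ1 (0.27 ± 0.10), both mitochondrial, and their number was 0 without Control replicate 1, and 1 without Control replicate 2 or 3, IRAK4 replicate 3, IRAK4(KD) replicate 1, IRAK1 replicate 2 or 3 or any 1 IRAK2 array. The 2 in IRAK4(KD) became 1 without Control replicate 2 or 3 or IRAK4(KD) replicate 2, and without IRAK1 replicate 3 1 gene also fell there. In IRAK1 the number that fell was 2 without IRAK1 replicate 3.

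The SSB proteins act at the ribosome, and the 127 cytosolic ribosomal protein genes were therefore described beside them. In IRAK1 121 fell and 1 rose, with a median of -0.52, where SSB1 and SSB2 stood at -0.60 and -0.70. The other SSB1 probe set stood at -1.09 there. In IRAK4 58 fell and 0 rose, with a median of -0.27 (90 and 1 without IRAK1 replicate 1), while SSB1 and SSB2 stood at -0.01 and -0.06 and were not called. In IRAK2 4 rose and 0 fell and in IRAK4(KD) 3 and 0, with medians of 0.10 and 0.01. Of all genes 28.2% fell and 30.6% rose in IRAK1, and 16.4% and 28.2% in IRAK4. In IRAK2 3.38% fell and 5.82% rose, and in IRAK4(KD) 6.00% and 11.7%. In the unweighted fit of all arrays as deposited, the numbers of ribosomal protein genes that rose in IRAK2 and IRAK4(KD) thus lie below the background. Those numbers were larger with array weights (48 and 20) and from the 6 arrays compared (19 and 7). They were smaller after median centring (1 and 1) and quantile normalization (2 and 1). The shares of all genes under these settings are not given, so the numbers there cannot be set against a background. The 4 in IRAK2 and the 3 in IRAK4(KD) also hung on single arrays. In IRAK2 the 4 became 13 without IRAK1 replicate 1, 1 without Control replicate 2 or 3 or any 1 IRAK2 array, and 2 without Control, IRAK4 or IRAK4(KD) replicate 1 or without IRAK4 or IRAK4(KD) replicate 2. In IRAK4(KD) the 3 became 10 without IRAK1 replicate 1 and 1 without Control or IRAK4(KD) replicate 2 or 3, and the median in IRAK4(KD) was -0.03 after median centring. In IRAK2 1 ribosomal protein gene fell without IRAK1 replicate 1 or 3.

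For each of the 10 genes the 3 genes with the most similar pattern were found by Pearson's r over the 15 arrays, which fall into 5 groups and share their labelling and scaling. These r are a description, and without IRAK1 replicate 1 the same pairs lay between 0.92 and 0.99. Nearest to SSA1 were the Hsp90 gene HSC82 (0.955), OCA2 (0.943) and APA1 (0.926), and nearest to SSA2 the mitochondrial chaperonin gene HSP10 (0.965), the invertase gene SUC2 (0.940) and HSC82 (0.938). SSA4 was most like STI1, which encodes the adaptor between Hsp70 and Hsp90 (0.945), YBR062C (0.945) and RPN4, the activator of proteasome genes (0.939). SSA3 was most like SFA1 (0.975), CHA1 (0.966) and ATG31 (0.963). The inducible pair had none of these genes in common, and its own r was 0.754, below the 0.828 of SSA1 with SSA2 and the 0.958 of SSB1 with SSB2. SSA1 and SSA2 transcripts can share signal on an array, and the SSB1 set used may share probes with other transcripts. The r of these pairs may thus hold shared signal, which was not tested. The Hsp110 gene SSE1 had an r of 0.938 with SSA2 and 0.904 with SSA1, and 0.205 with its paralogue SSE2.

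SSE1 was most like HSC82 (0.953) and the Hsp90 co-chaperone genes AHA1 (0.947) and HCH1 (0.945), and FES1 most like STI1 (0.986), HSP82 (0.985) and SIS1 (0.985). SSE2 was most like ATG31 (0.967), HSP42 (0.958) and SSA3 (0.957). SSB1 was most like MCD1 (0.984), the ribosomal protein gene RPS0B (0.983) and PRT1, a subunit of translation initiation factor 3 (0.982), and SSB2 like CLU1 (0.982), GDH1 (0.981) and MRPL35 (0.980). SNL1 was most like MRP2 (0.975), TIM8 (0.970) and MRPL39 (0.968), which encode mitochondrial proteins.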

How the data were processed

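Per the labels' protocols, RNA of 15 cultures was labelled with biotin for Affymetrix arrays. The authors deposited log2 values made with GCRMA (version not given), per the submitters' processing notes, and the range of the values fits that scale. Precision is limited by the number of arrays.

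Of 5716 probe sets 5498 were paired with 1 gene by the platform annotation, 12 symbols were updated with RefSeq R64, and the set with the highest mean was kept for each of 5449 genes. Values were used as deposited. Group means of all 15 arrays were fitted with limma 3.58.1 in R 4.3.3 (lmFit, eBayes, two-sided, Benjamini-Hochberg over all genes) for 10 comparisons, with a threshold of 0.05. The procedure was tested on simulated data. Figures were drawn with matplotlib 3.10.9.

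The members, gene lists and tests were chosen with earlier results of these data known. All 10 members are named, as are the 3 genes most like each and, from the Hsf1, J-protein, other Hsp70 and Msn2 and Msn4 lists, genes among the 3 called ones with the largest change in a comparison with Control or of IRAK4 with IRAK4(KD). The alternatives were other scalings, a filter on low values (mean of at least 5), all probe sets of a gene averaged, other eBayes settings, array weights, the 6 arrays compared, a block for the replicate number, and leaving out each array. Replicate numbers pair the arrays of IRAK1 and Control by the rule that every pair's deviations from the group means correlate above 0.1 (0.19, 0.104 and 0.35), from the data alone, since no label says what a number marks. Promoter and protein sequences were not used here.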

Additional observations from a re-analysis of the deposited data

Results flagged for a closer look

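For 3 of the 10 genes, called changes against Control ran in opposite directions in different kinase groups. The direct comparison of those groups, which tests the difference itself, was called by limma. SSA2, lower than Control in IRAK4 alone, differed by -1.58 between IRAK4 and IRAK4(KD) (adjusted p = 3.40e-09), by 1.45 between IRAK1 and IRAK4 (adjusted p = 1.06e-09) and by 1.72 between IRAK2 and IRAK4 (adjusted p = 5.03e-10). For SSE1 the same differences were -0.52, 0.64 and 0.72 (adjusted p = 6.55e-05, 4.59e-06 and 1.59e-06). SNL1, lower than Control in IRAK4 and IRAK1 and higher in IRAK2, differed by 0.94 between IRAK2 and IRAK4 (adjusted p = 8.38e-07) and by 1.04 between IRAK2 and IRAK1 (adjusted p = 1.89e-07).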

How the results depend on the processing

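Of 100 differences (10 genes in 10 comparisons) 76 were called. Of these, 68 were called under all 23 alternatives and 8 lost the call under at least 1; none of the 76 changed sign. With median centring or quantile normalization 0 genes were higher in IRAK4 than IRAK4(KD), and 2 with array weights or the 6 arrays compared, in place of 1. Lower in IRAK2 than IRAK4 was 1 gene under both scalings in place of 2, and lower in IRAK2 than IRAK4(KD) 1 after quantile normalization in place of 2. Array weights gave 1 gene lower in IRAK2 than Control (SSB1) in place of 0. Leaving out 1 array in turn gave 0 to 2 genes higher in IRAK4 than IRAK4(KD), 1 to 2 lower in IRAK2 than IRAK4 and 0 to 3 lower in IRAK2 than IRAK4(KD). The shift of SSA3 and SSA4 against SSA1 and SSA2, leaving out the SSB genes, was 3.07 in IRAK1, 2.12 in IRAK4, 0.68 in IRAK4(KD) and 0.60 in IRAK2, and that of SSA4 against SSA2 alone 2.15 in IRAK4 and 1.55 in IRAK2, which follows from the genes taken. With the replicate number as a block, IRAK1 against Control stayed at 7 genes higher and 3 lower, and the 1 call that ended among the 10 genes was that of SSE1 in IRAK2 against IRAK4(KD) (0.20, adjusted p = 0.0621). Every array correlated best with its own number in 1 of 10 comparisons, IRAK1 against Control. With array weights 48 ribosomal protein genes rose in IRAK2, 20 in IRAK4(KD), and 94 fell in IRAK4, and 14 Msn2 and Msn4 genes fell in IRAK2. The IRAK1, IRAK2 and IRAK4 proteins, and growth of the cultures, were not analysed here.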
